A study of Mus musculus with 3 samples.

Results

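Mouse chromosomes carry the centromere at one end, and the reference sequence of every autosome starts near 3 Mb, after an unsequenced gap that stands for the centromere and its flanking satellite repeats. The windows described here are the first stretch of readable sequence beside that gap. They are the 500-bp windows on chromosomes 1 to 19 that start before position 5000000 and have a mean read density (RPM, scaled to library size) below 15 over the libraries. The rule selected 2156 windows out of 143198 in the whole table and out of 138241 on the autosomes, so 136085 autosomal windows served for comparison. A further 29 windows in the same range exceeded the density ceiling and were not counted as members. The label holds as a position: listed windows began between 3000001 and 3218001 on all 19 autosomes. No column of the table annotates repeats or heterochromatin, so nothing beyond the position was checked.

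The windows come from MBD-seq of C57BL/6 mouse sperm, taken from the cauda epididymis. Genomic DNA was sheared to about 300 bp, fragments carrying methylated CpG were captured with the MBD2 protein, and the captured DNA was sequenced. All mice were injected intraperitoneally 2 times a week for 5 weeks from an age of 8 weeks, and sperm was taken 4 days after the last injection, with an age label of 14 weeks. The vehicle control received saline, the low dose group received doxorubicin (DXR) at 0.02 mg/kg and the high dose group received it at 0.2 mg/kg. There was 1 library per group, and how many animals each pooled is not given in the sources. No difference below therefore has a replicate check, and no test was possible. Doxorubicin is an anthracycline that intercalates in DNA and blocks topoisomerase II. All windows in the table had RMS, the methylation score per window that the authors deposited, above 1 in at least 1 library, so stretches low in every library were not analysed here. A window above 1 in a single library is listed only through that library, so its lower values elsewhere are partly built in.

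DNA methylation is a mark on cytosines followed by guanine (CpG). In mature sperm most CpG outside CpG-rich promoters are methylated, and the pattern is set by DNMT3 enzymes in the male germ line and copied at each division by DNMT1. Pericentromeric satellite DNA and its surroundings are usually packed as heterochromatin in somatic cells, and CpG methylation is one of the marks of that state. MBD capture reports how much methylated DNA a stretch yields, which depends on CpG number as well as on the methylated share.

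A promoter sequence could be read for a few of the windows, from RefSeq on GRCm38.p6, whose primary coordinates are those of mm10. They are shown for the CG that they hold at the start of a gene, with each CG in capitals. Of 619 RefSeq promoters that start below 5 Mb on the autosomes, 16 (2.58%) overlapped a listed window, against 4.21% of the 30777 promoters elsewhere on the autosomes. Each promoter runs from 250 bases before to 50 after the gene start. The motif CG, which reads the same on both strands, occurred in 94.8% of all 31396 autosomal promoters. The Eps8l1 promoter (plus strand, chr7:4460447-4460746) lies wholly inside a pair of adjacent windows. The Cacng8 stretch (plus strand, chr7:3394001-3394091), the Fcer2a stretch (minus strand, chr8:3690341-3690500) and the Zfp958 stretch (plus strand, chr8:4612920-4613000) are the parts of the promoters that a window covers.
Eps8l1: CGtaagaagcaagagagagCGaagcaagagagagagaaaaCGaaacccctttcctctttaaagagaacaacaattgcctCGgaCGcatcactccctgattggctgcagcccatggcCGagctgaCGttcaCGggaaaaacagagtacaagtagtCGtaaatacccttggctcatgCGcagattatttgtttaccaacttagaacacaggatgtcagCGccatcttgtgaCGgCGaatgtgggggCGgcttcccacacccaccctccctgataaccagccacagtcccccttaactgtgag
Cacng8: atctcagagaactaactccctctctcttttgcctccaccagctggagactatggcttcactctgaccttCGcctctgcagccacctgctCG
Fcer2a: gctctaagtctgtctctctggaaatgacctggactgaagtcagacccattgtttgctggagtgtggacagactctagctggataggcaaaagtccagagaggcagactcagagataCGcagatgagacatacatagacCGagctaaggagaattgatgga
Zfp958: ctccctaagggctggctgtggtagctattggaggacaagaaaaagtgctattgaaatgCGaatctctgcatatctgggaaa

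The whole Eps8l1 promoter held 14 CG, and the covered stretches of Cacng8, Fcer2a and Zfp958 held 2, 2 and 1. These stretches are 91, 160 and 81 bp of 500-bp windows, so the counts are not the CpG content of the windows. Eps8l1 encodes a relative of the EPS8 actin regulator. RMS of its first window was 3.86 in the control, 4.60 with the low dose and 4.57 with the high dose. The second window of Eps8l1 had 3.28, 3.99 and 3.67. Both DXR libraries were above the control in both windows. At Fcer2a, the low-affinity IgE receptor, RMS was 1.16, 0.631 and 0.308 in the same order. At Zfp958, a zinc finger gene, RMS was 1.32 in the control, 0.575 with the low dose and 0.730 with the high dose. At both Fcer2a and Zfp958 only the control was above 1. At Cacng8, a subunit that modulates AMPA receptors, RMS was 1.23, 1.33 and 1.70. The control was thus the highest of the 3 libraries at Fcer2a and Zfp958 and the lowest at Cacng8 and Eps8l1. These are examples, and their even split does not describe the 16 overlapping promoters. Others also went each way, with the control highest at Pcp2 and Gm51881 and lowest at Gm45957. The median number of CG was 8.5 in the 16 overlapping promoters below 5 Mb and 9 in the 603 that no listed window overlaps.

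Most of the centromere-proximal windows lay outside genes. The annotation placed 53.1% of them in intergenic sequence, against 41.0% of the other autosomal windows. Introns held 26.9% against 35.1%, exons 24.9% against 27.5%, and first exons 5.15% against 4.12%. Only 10 windows were annotated upstream of a gene and 22 downstream, each within 500 bp. The 1011 windows touching a gene carried 291 symbols. Listed windows overlapped 40.9% of the 540 RefSeq protein-coding genes that start below 5 Mb and 59.3% of the 20121 others. The intergenic share ranged over chromosomes from 22.2% of members on chromosome 11 to 100% on chromosome 3. A high intergenic share was not particular to this stretch. Among autosomal windows below the density ceiling it was 41.2% from 5 to 6 Mb, 54.9% from 6 to 8 Mb and 53.9% from 8 to 10 Mb. From 10 to 15 Mb it was 53.2%, and beyond 20 Mb 39.3%.

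The windows were mostly scattered and short. They formed 1420 runs of adjacent windows, of which 946 were a single window, and the longest run held 8 windows. Runs of at least 5 windows numbered 36, and 56.1% of all members had a listed neighbour. Chromosome 19 held the most members, 215, and chromosome 14 the fewest, 41. The 2 longest runs were in Spnb3, a beta-spectrin gene on chromosome 19 (chr19:4731001-4735000), and in intergenic sequence of chromosome 4 (chr4:3312001-3316000). Mean RMS over the Spnb3 run was 3.59 in the control, 3.41 with the low dose and 3.04 with the high dose. On the chromosome 4 run it was 3.47, 3.41 and 3.68. The high dose library was the lowest of the 3 in the first run and the highest in the second.

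Levels in the control library were close to those of the other autosomal windows. Median RMS in the control was 1.82 (interquartile range 1.24 to 2.90) in members and 1.80 in the others. At the low dose the medians were 1.78 and 1.67, and at the high dose 1.70 and 1.56. The interquartile range of members was 1.17 to 2.91 at the low dose and 1.05 to 2.84 at the high dose, so the libraries overlapped almost entirely. RMS above 1 was listed for 90.6%, 83.4% and 77.3% of members in the control first, then the low dose, then the high dose, against 91.2%, 80.2% and 73.2% of the others. Summed over members, RMS at the low dose was 99.3% of the control and at the high dose 97.9%. Over the other autosomal windows the same sums were 95.5% and 92.7%. Read density was slightly higher in members, with a median mean RPM of 2.55 against 2.29. RMS divided by AMS, a second deposited score, is called the factor here. It had a median of 2.6 in both sets and was at least 5 in 6.96% of members and 5.39% of the others. The factor serves as a stand-in for CpG content: over 419 RefSeq promoters lying wholly inside an autosomal window it followed the CG count with a Pearson r of 0.85 and a Spearman coefficient of 0.75, a description across windows that share the libraries.

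Near the ceiling, the densest members had a mean RPM of 14.9 and 14.4 on chromosome 9 and 14.6 on chromosome 3. The windows just above it had 15.02 on chromosome 11, 15.4 on chromosome 3 and 16.8 on chromosome 9. RMS of the last member window below the ceiling was 12.6 in the control, 13.1 with the low dose and 16.4 with the high dose.

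The first 40 kb of readable sequence on chromosome 9 stood apart by level. Between 3002001 and 3038500 it held 37 members, next to 20 of the 29 windows over the ceiling, where median RMS was 37.3 in the control. The members there had a median RMS of 2.88 in the control, 3.20 with the low dose and 3.83 with the high dose, and the highest reached 17.4 in the control. Their annotation is a clone name, AC131780.3, and predicted genes, and their median factor was 2. The strongest member of all (chr9:3006001-3006500) had RMS 17.4 in the control, 17.6 with the low dose and 17.7 with the high dose. High dose RMS was above control in 26 of the 37 members. The sources do not give how reads from repeated copies were placed. Without these windows the median RMS of members in the control was 1.81.

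The question of the study design is how sperm methylation differs after DXR. The change in a window was computed as log2((treated RMS + 0.766)/(control RMS + 0.766)), which understates changes of low windows, and 2-fold on this scale was the limit for calling a window higher or lower. Relative to control, the high dose library was lower in 54.8% of members and in 61.5% of the other autosomal windows. With the high dose the members' median change was -0.04, with an interquartile range of -0.31 to 0.18. In the others the median was -0.11, with a range of -0.40 to 0.13. At the low dose the medians were -0.00087 and -0.06. Members thus sat 0.07 above the other windows at the high dose and 0.06 above at the low dose, a shift well inside the spread of single windows. Both comparisons share the control library. Between high and low dose the medians were -0.03 and -0.04.

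The direction of the members' own median depends on scaling. The median over all 143198 windows was -0.10 at the high dose and -0.05 at the low dose. Dividing each library by its median put the members at 0.10 and the other windows at 0.03 at the high dose, and quantile normalization put them at 0.06 and 0.0034. The members lay above the others under both scalings. Counts of medians above 0 given below are for RMS as deposited and are to be read against the same count in the other windows.

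Few windows passed 2-fold. At the high dose 39 members (1.81%) were lower, where 2.52% of all windows in the table and 2.60% of the other autosomal windows were lower. In the higher direction there were 2 members (0.0928%), with 0.0824% of all windows. At the low dose 20 members (0.928%) were lower, with 1.24% of all windows, and 3 were higher, with 0.12%. Between high and low dose 7 members were lower, with 0.33% of all windows, and 3 were higher, with 0.0293%. Of the 39 lower at the high dose 27 touched a gene and 12 were intergenic, spread over 16 chromosomes. Their median RMS was 1.39 in the control, 0.785 with the low dose and 0.248 with the high dose. These were sparse windows, with a median mean RPM of 0.799, and 4 of them were listed at 0 at the high dose. Of the 3 median RMS values only that of the control was above 1, the level that the list requires in at least 1 library. For the 20 lower at the low dose the medians were 1.37, 0.177 and 0.399 in the same order, again above 1 in the control alone.

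The shares of lower windows depend strongly on the scale. With the pseudocount divided by 3, 142 members were lower at the high dose, and with it multiplied by 3, 0 were. After quantile normalization 7 were lower and after division by the library medians 21. In each of these settings the share lower at the high dose was larger in the other autosomal windows than in members. Among the 1482 members with RMS above 1 in all 3 libraries 0 were lower at the high dose, and 0.295% of the other windows of that kind were. With high dose RMS held above 1, only windows of high control RMS can pass the limit, so this 0 follows in part from the filter.

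**Figure D1:**
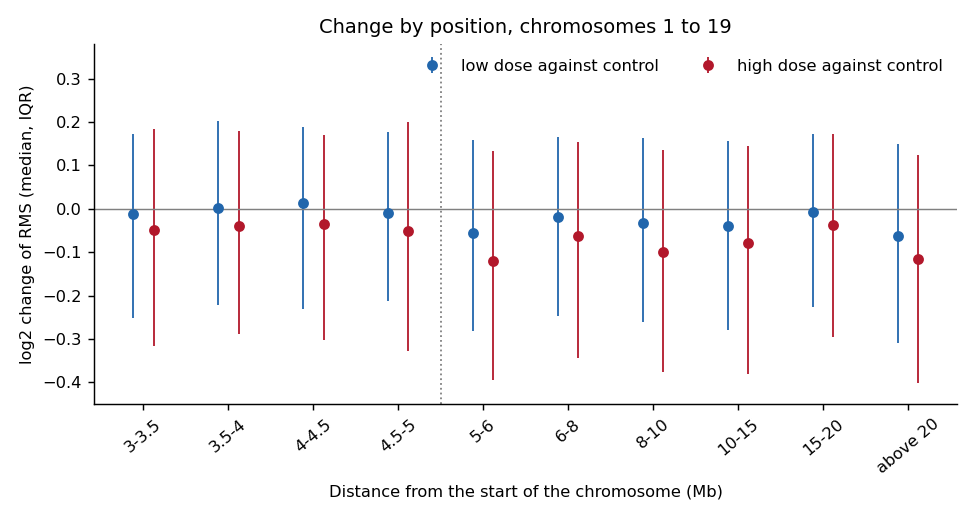
Median log2 change of RMS with its interquartile range, for windows on chromosomes 1 to 19 binned by position in Mb (low dose in blue, high dose in red, 1 library each). The 4 bins left of the dotted line are the centromere-proximal windows, with high dose medians of -0.05 to -0.03. The bin from 5 to 6 Mb is at -0.12 and the bin from 15 to 20 Mb at -0.04.

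High dose medians differed little by position within the first stretch. They were -0.05, -0.04, -0.03 and -0.05 in the successive bins of 0.5 Mb from 3 to 5 Mb. The low dose medians there lay between -0.01 and 0.01. Of the 20 windows lower at the low dose, 10 were in the first bin, a share of 1.68%. The next bins had 0.398%, 1.16% and 0.372%. Beyond 20 Mb the share lower at the low dose was 1.32%, and over all windows it was 1.24%. The intergenic share was 68.8% in the first bin and 43.7% in the last. From 5 to 6 Mb the median was -0.12, from 6 to 8 Mb -0.06, from 8 to 10 Mb -0.10 and from 10 to 15 Mb -0.08. Beyond 20 Mb it was -0.12. The change with distance was not steady: from 15 to 20 Mb, where 69.6% of windows were intergenic, the median was -0.04, equal at this rounding to that of the centromere-proximal members. At the edge of the rule, 127 windows from 4.9 to 5 Mb had a median of -0.06 and 157 windows from 5 to 5.1 Mb had -0.19.

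**Figure D2:**
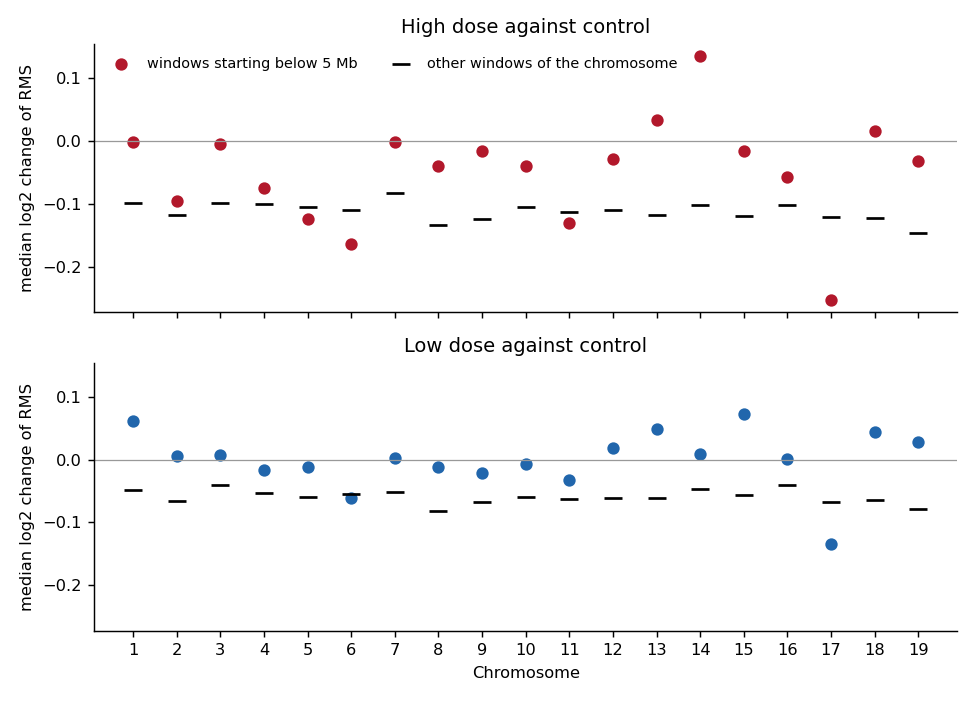
Median log2 change of RMS by chromosome, at the high dose (upper) and the low dose (lower). Circles are the windows starting below 5 Mb and dashes are the other windows of the same chromosome. At the high dose the circle is above the dash on 15 of 19 chromosomes, with chromosome 14 the highest and chromosome 17 the lowest.

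Chromosome by chromosome, the members were above the rest of their own chromosome on 15 of 19 chromosomes at the high dose and on 17 of 19 at the low dose. Chromosomes are not replicates, and these counts describe the same 3 libraries. The exceptions at the high dose were chromosomes 5, 6, 11 and 17. The difference from the rest of the chromosome ranged from -0.13 on chromosome 17 to 0.24 on chromosome 14, with a median of 0.08 and an SD over chromosomes of 0.082. On chromosome 14 the 41 members had a median RMS of 2.08 in the control and 2.19 at the high dose. On chromosome 17 the 51 members had 1.41 and 1.14. Between high and low dose 10 of 19 chromosomes had members above the rest.

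In blocks of 0.5 Mb with at least 10 listed windows, 24 of 72 centromere-proximal blocks (33.3%) had a median above 0 at the high dose, against 23.0% of 4025 other blocks. At the low dose 38 blocks (52.8%) were above 0, against 30.7%. The lowest block was 3 to 3.5 Mb on chromosome 17, with a median of -0.39 over 15 windows. It holds the first windows of Scaf8, a protein that binds the tail of RNA polymerase II, and of Tiam2, an exchange factor for Rac. A Scaf8 window (chr17:3156001-3156500) had RMS 1.47 in the control, 0.785 with the low dose and 0.323 with the high dose. The highest block was 4.5 to 5 Mb on chromosome 10, with a median of 0.24 over 15 windows, 14 of them in Esr1. The blocks 3 to 3.5 Mb and 4 to 4.5 Mb on chromosome 14 followed with 0.17 and 0.16.

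**Figure D3:**
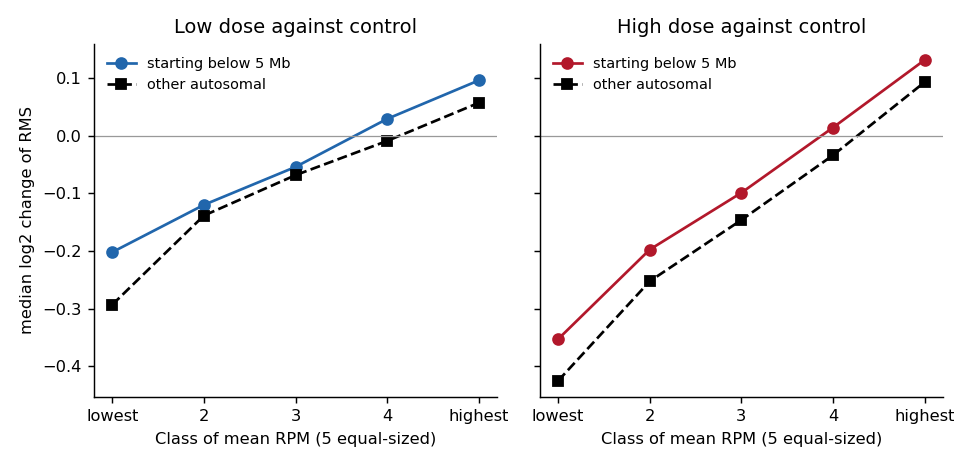
Median log2 change of RMS over 5 equal-sized classes of mean RPM, at the low dose (left) and the high dose (right). Filled circles are the centromere-proximal windows and squares the other autosomal windows. The median climbs with density in both sets, from -0.35 to 0.13 in members at the high dose, and the members are above the others in each class.

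Read density moved with the change in both sets of windows. All autosomal windows were split into 5 equal-sized classes of mean RPM. In the lowest class, below 1.09, the high dose median was -0.35 in members and -0.43 in the others. In the highest class, above 4.897, it was 0.13 and 0.09. Of the 39 lower windows 31 were in the lowest class and 8 in the next. Within classes the members were 0.04 to 0.07 above the others at the high dose and 0.01 to 0.09 above at the low dose. Members filled the highest class a little more often, with 23.1% of them there and 17.1% in the lowest.

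The same order held by annotation and by factor at both doses. At the high dose the median was -0.03 in intergenic members against -0.07 in other intergenic windows. In introns it was -0.06 against -0.17 and in exons -0.05 against -0.11. The share 2-fold lower at the high dose was nevertheless higher in members in introns, at 3.62% against 3.29%, and in windows with a factor under 2, at 3.58% against 3.27%. Where the factor was at least 4, medians were 0.13 against 0.10, and where it was under 2 they were -0.06 against -0.16. The 111 first-exon windows had a median of 0.04 against -0.09, with 0 of them lower and 2.32% of other first-exon windows lower. The 10 upstream windows had a median of 0.08. In members with RMS above 1 in all 3 libraries the median was 0.04 against -0.02.

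A step down with dose was less frequent in members. The control was highest and the high dose lowest in 22.9% of them and in 28.4% of the other windows. The reverse order, with the control lowest and the high dose highest, occurred in 19.2% against 14.7%.

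**Figure D4:**
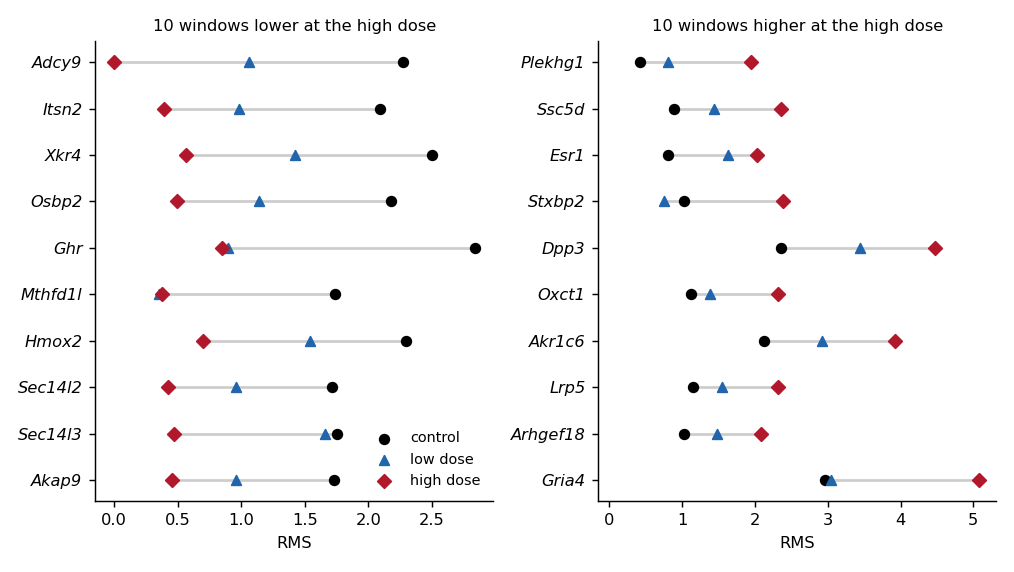
RMS (control black, low dose blue, high dose red) for the 10 gene windows with the most negative (left) and most positive (right) change at the high dose, 1 window per gene. Adcy9 is listed at 0 at the high dose. The left windows all passed 2-fold, and of the right windows 1, in Plekhg1, did.

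Among gene windows that were lower at the high dose, 10 were named by the size of the change, 1 per gene. The 3 values given for each are RMS in the control first, then with the low dose, then with the high dose. The window in Adcy9, an adenylyl cyclase (chr16:4307001-4307500, exonic), had 2.27 and 1.06, then a listed value of 0. The window in Itsn2, an endocytic scaffold (chr12:4701501-4702000, intronic), had 2.09, 0.985 and 0.388, a change of -1.31. The window in Xkr4, of the XK family of membrane proteins (chr1:3622001-3622500, intronic), had 2.50, 1.42 and 0.562, a change of -1.30. In these windows the low dose library lay between the other two.

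In Ghr, the growth hormone receptor (chr15:3370001-3370500, intronic), RMS was 2.84, 0.897 and 0.848. In Mthfd1l, a mitochondrial enzyme of folate metabolism (chr10:4097501-4098000, intronic), it was 1.73, 0.352 and 0.379. Both windows were 2-fold lower at both doses, with close RMS in the DXR libraries. Over all 12 Ghr windows the high dose median change was 0.02, with 7 above the control. In all, 8 of the 2156 members were lower at both doses, where 0.548% of all windows were, and 0 were higher at both, where 0.0161% of all windows were. The other 6 were a second Mthfd1l window (chr10:4088501-4089000), a window in Cdk6, a cell cycle kinase (chr5:3491001-3491500), and 4 intergenic windows on chromosomes 2, 13, 17 and 19. All 8 had RMS above 1 in the control alone. The filtered list therefore holds them only through the control, and low values in both DXR libraries are partly built in. The remaining named windows lower at the high dose were in Osbp2, Hmox2, Sec14l2, Sec14l3 and Akap9, with changes of -1.23 to -1.03.

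Hmox2 encodes the constitutive heme oxygenase, and its named window (chr16:4745001-4745500) had 2.30, 1.54 and 0.696. Over all 8 Hmox2 windows the high dose median change was 0.21, with 5 above the control. Mean RMS over the 8 was 2.92, 2.69 and 3.41. Sec14l2 and Sec14l3 are neighbouring lipid-transfer genes on chromosome 11, and Akap9 is a scaffold for protein kinase A. The Sec14l3 window (chr11:4076001-4076500, exonic) had 1.75, 1.66 and 0.467, so there the low dose library was close to the control. Srl, a calcium-binding protein of the sarcoplasmic reticulum, had 2 lower windows, and 1 of them (chr16:4492001-4492500) had 1.17, 1.41 and 0.0998.

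Gene windows with the most positive change at the high dose had smaller changes. The window in Plekhg1 (chr10:3957001-3957500, exonic) had RMS 0.428, 0.813 and 1.94, a change of 1.18. It was the single gene window past 2-fold in that direction. Ssc5d, a secreted scavenger receptor (chr7:4928001-4928500, exonic), had 0.893, 1.44 and 2.36, a change of 0.91. Esr1, the estrogen receptor alpha gene (chr10:4906501-4907000, intronic), had 0.813, 1.63 and 2.03, a change of 0.83. In these windows RMS was in the order of dose. All of them were below 1 in the control, and the Plekhg1 window was above 1 in the high dose library alone. The filtered list therefore holds them only through DXR libraries, and low control values are partly built in.

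In Stxbp2, a syntaxin-binding protein of secretion (chr8:3637001-3637500, exonic), RMS was 1.02, 0.754 and 2.39, and the high dose was 2-fold above the low dose. Dpp3, a peptidase (chr19:4910001-4910500, exonic), had 2.35, 3.44 and 4.48. Gria4, an AMPA receptor subunit (chr9:4492001-4492500, intronic), had 2.96, 3.05 and 5.08. Oxct1, the key enzyme of ketone body use, Akr1c6, a hydroxysteroid dehydrogenase, Lrp5, a Wnt co-receptor, and Arhgef18 had changes of 0.67 to 0.71.

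At the low dose no gene window passed 2-fold upward. Among the windows named by rule the largest change was in Dnmt3a, a de novo DNA methyltransferase (chr12:3905501-3906000, exonic), with RMS 2.06 in the control, 3.82 with the low dose and 2.35 with the high dose. The high dose library was near the control there. Some windows too low for that rule had larger changes, such as that of Rab10, a vesicle transport GTPase (chr12:3261501-3262000), with 0.516, 1.42 and 1.33 and a low dose change of 0.77. Lass4, a ceramide synthase, Frmd4a, a cell polarity scaffold, Adcy3, an adenylyl cyclase, Glis2, a zinc finger factor, and Gp6, a platelet collagen receptor, had low dose changes of 0.63 to 0.67. Cpt1a, which takes fatty acids into mitochondria, Ctsf, a lysosomal protease, and the kinases Cdk14 and Cdk6 had 0.58 to 0.62.

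Downward at the low dose, the named windows past 2-fold were in Mthfd1l, Plekhg1, Ghr, Cdk6 and Syt12. Each of these windows had RMS above 1 in the control alone, so low values in the DXR libraries are partly built in. The Plekhg1 window (chr10:3920501-3921000, intronic) had RMS 2.49, 0.734 and 0.914, while the other Plekhg1 window above was higher at the high dose. A gene could thus hold windows in both directions. The Cdk6 window (chr5:3486001-3486500, intronic) had 2.17, 0.635 and 0.786. Syt12, a synaptotagmin (chr19:4460501-4461000, exonic), had 1.81, 0.489 and 0.852. Windows in Frmd4a, Lrp5, Ppp1r14c, Ccdc132 and Cenpo, the last a centromere protein gene, had changes of -0.99 to -0.87.

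Between the DXR libraries the named windows past 2-fold were in Stxbp2, higher at the high dose, and in Ppp6r3, lower. Ppp6r3 is a regulatory subunit of protein phosphatase 6, and its window (chr19:3459501-3460000, intronic) had RMS 1.45 in the control, 1.93 with the low dose and 0.574 with the high dose. Smtn, a smooth muscle actin-binding gene on chromosome 11, appeared in both directions. Its window at chr11:3526001-3526500 had 1.91, 1.09 and 2.76, and its window at chr11:3533501-3534000 had 1.58, 1.91 and 0.904. Adjacent windows shared by Doc2g and Nudt8, which overlap in the annotation, also went both ways, with changes of 0.59 and -0.99. The other named windows were, upward, in Plekhg1, Rce1, Cdk6, Cdip1, Gria4, Adcy3 and Oxct1, with changes of 0.52 to 0.78. Downward they were in Ankib1, Nudt8, Osbp2, Nipsnap1, Scaf8, Rgs20 and Sgce, with changes of -0.996 to -0.69, all short of the limit.

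The gene windows of highest control RMS were all short of 2-fold. Ucma, a cartilage protein (chr2:4981001-4981500), had RMS 7.89 in the control, 7.31 with the low dose and 6.05 with the high dose. Dusp18, a phosphatase (chr11:3897001-3897500), had 7.63, 8.81 and 9.38. Timm44, part of the mitochondrial import motor (chr8:4267501-4268000), had 7.55, 6.76 and 8.23. Windows of Ankib1 and Fam171a1 had control RMS of 7.38 and 7.37 and high dose changes of 0.17 and -0.37.

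**Figure D5:**
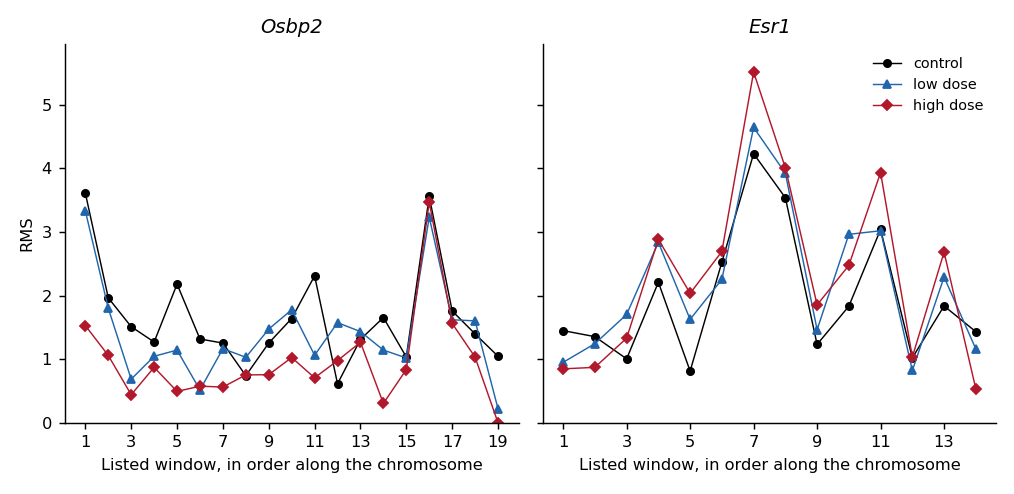
RMS in every listed window of Osbp2 (19 windows) and Esr1 (14 windows), in order along the chromosome (control black, low dose blue, high dose red). The high dose is below the control in 17 of 19 Osbp2 windows and above it in 11 of 14 Esr1 windows.

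Some genes with several windows leaned one way over most of them. Osbp2, an oxysterol-binding protein whose loss in mice impairs late sperm formation, had 19 windows between 3710001 and 3855500 on chromosome 11. High dose RMS was below the control in 17 of them, and 4 passed 2-fold. Mean RMS over the gene was 1.65 in the control, 1.41 with the low dose and 0.959 with the high dose. The gene's median change was -0.42. Its windows were sparse, with an average mean RPM of 1.63. Over all members the high dose median was -0.35 in the lowest density class and -0.20 in the next, which ends at 1.82. The exonic window chr11:3714501-3715000 had 2.18, 1.14 and 0.493, and the last window (chr11:3855001-3855500) had 1.05 and 0.221, then a listed value of 0.

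Esr1 leaned the other way. Its 14 windows between 4794501 and 4987500 on chromosome 10 had a mean RMS of 1.97 in the control, 2.21 with the low dose and 2.33 with the high dose, and a median change of 0.27. RMS in 11 of 14 was above the control at the high dose. These windows were denser than those of Osbp2, with an average mean RPM of 3.71. Over all members the high dose median was 0.01 in the fourth density class and 0.13 in the highest. The densest Esr1 window (chr10:4911501-4912000) had 4.23, 4.64 and 5.51. Below the control were the first 2 Esr1 windows and the last (chr10:4987001-4987500), which had 1.43, 1.16 and 0.534.

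Among the 74 genes with at least 5 windows, 27 (36.5%) had a median above 0 at the high dose, against 22.5% of 5036 other autosomal genes. Genes that share windows were counted separately. The 27 include a clone-named gene and predicted genes that share windows in the first 40 kb of chromosome 9. The lowest medians besides Osbp2 were in Srl and Itsn2, both -0.48, Bend7 at -0.45, and Suv420h1 and Ccdc132, both -0.42. Bend7 had 11 of 13 windows below the control. Suv420h1, a histone H4 lysine methyltransferase of constitutive heterochromatin, had all 5 of its windows below the control in an unbroken run (chr19:3814001-3816500), with mean RMS 3.65, 2.53 and 2.55. The positive side included Akr1c14, a hydroxysteroid dehydrogenase, with 6 of 6 windows above the control and a median of 0.22. Pnpla6, a lysophospholipase, had 7 of 8 above and a median of 0.19. Akap12, another protein kinase A scaffold, had 9 of 13 above and a median of 0.21. Lrfn4 had 0.30, but its 5 windows are shared with Pcx, pyruvate carboxylase, whose 17 windows had 0.22. All genes named in this paragraph, and Esr1, kept the sign of their median under quantile normalization and under division by library medians. Osbp2 was at -0.25 and -0.30 and Esr1 at 0.30 and 0.41. The trend with read density was not subtracted from any gene median.

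Over the gene groups together, 8 of 274 windows (2.92%) were lower at the high dose, against 2.52% of all windows, and 6 (2.19%) at the low dose, against 1.24%. Group medians stand beside -0.10 over all windows at the high dose and -0.05 at the low dose. Under quantile normalization and under division by library medians, which put all windows at 0.01 and 0.04, the high dose medians of the groups for chromatin, DNA repair, germ cells and growth factors, each without the added genes named below, and of Dnmt3a, turned positive, at 0.01 to 0.14. The high dose medians given below stayed on their side of 0 in the groups for metabolism, oxidative stress, the imprinted cluster and chromosome 1. Metabolism and hormone signalling had 9 of 12 genes listed, with 97 windows, a high dose median of 0.03, 3 windows lower (Adcy9, Ghr, Oxct1) and 0 higher. Growth factors, receptors and oncogenes had 10 of 12 genes and 65 windows, with a median of -0.05 and 2 windows lower at the high dose, both in Cdk6, and 3 at the low dose, also in Cdk6, which is 4.62% of the group against 1.24% of all windows. Chromatin and DNA methylation genes had 7 of 8 listed, with 24 windows and a median of -0.07. The list leaves out the histone methyltransferase genes Suv420h1 and Suv420h2, and with them, added after their values were seen, the median was -0.13 and stayed below 0 under both other scalings, at -0.05 and -0.01. None of the 24 windows was lower at the high dose, and a window of Crebbp, an acetyltransferase, was lower at the low dose, with RMS 1.16, 0.155 and 0.497. That Crebbp window was above 1 in the control alone. Dnmt3a had 12 windows with a median of -0.10.

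DNA repair, replication and checkpoint genes had 5 of 8 listed (Cenpo, Ighmbp2, Mcm10, Slx4, Xab2), with 24 windows, a median of -0.06 and 0 windows past 2-fold in either direction at either dose. With Dclre1c, a repair nuclease gene that the list leaves out, the median was -0.07. Germ cell and meiosis genes had 2 of 5 listed (Cdk14 and Hormad2; the symbols Mtl5 and Tesmin name the same gene), with 9 windows, a median of -0.06 and 0 windows past 2-fold. The kinase gene Cdk14 held 8 of these 9 windows, so the group describes mostly that gene, whose own median was 0.04. With the 2 windows of Meig1, a meiosis-expressed gene that the list leaves out, the group median was 0.10, so its sign rests on the choice of genes. Oxidative stress and xenobiotic defence genes had 4 of 9 listed, with 11 windows, a median of 0.16 at the high dose and -0.01 at the low dose, and 1 lower window, that of Hmox2.

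The imprinted cluster of chromosome 6 and its neighbours had 5 of 6 genes listed (Calcr, Casd1, Peg10, Ppp1r9a, Sgce). Imprinted genes are expressed from the copy of 1 parent, and in mouse the copies of Sgce and Peg10 that are expressed come from the father. The 33 windows had a median of -0.24 at the high dose and -0.09 at the low dose, with 9 above the control at the high dose. Under both other scalings the high dose median was -0.11. The low dose median did not keep its sign, at 0.01 after quantile normalization and -0.02 after division by library medians. Chromosome 6 was one of the chromosomes whose members lay below the rest. A window of Ppp1r9a, an actin-binding phosphatase partner (chr6:4953001-4953500), had RMS 1.24 in the control, 0.965 with the low dose and 0.174 with the high dose. A window of Sgce, epsilon-sarcoglycan (chr6:4733501-4734000), had 1.23, 0.179 and 0.314. Both windows had RMS above 1 in the control alone. Ppp1r9a had 11 of 14 windows below the control at the high dose, and a further 14 of its windows lie beyond 5 Mb. Its high dose median was -0.40, against -0.18 over 8 Sgce windows and -0.0030 over 2 Peg10 windows. Calcr and Casd1 had -0.24 and -0.23. The Ppp1r9a and Sgce windows were sparse, with an average mean RPM of 1.48 and 1.54. Over all members the high dose median was -0.20 in the density class from 1.09 to 1.82. The first genes of chromosome 1 had 4 of 6 listed, with 16 windows, a median of -0.16 and 1 lower window, that of Xkr4.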

How the data were processed

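Sperm DNA captured with MBD2 was profiled in 3 libraries, 1 per group, so no comparison could be tested and no interval was given over windows. The authors deposited 1 table of 500-bp windows, with 297037 lines for 143198 windows, since a window has a line per transcript; each was counted once. The RPM values are read densities that the authors scaled to library size, per the file headers, and windows were annotated against Ensembl transcripts of 2013. The deposited RMS and AMS scores are methylation scores per window and library, whose names the headers do not spell out. A ratio column for the low dose, also deposited, was not used. The submitters' processing notes name mm10 as the build. The sources used here do not name the aligner or say how repeated reads were treated. The read depth behind a window is unknown.

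The table is a filtered list: 0 windows had RMS at or below 1 in all 3 libraries. Changes were log2 ratios of RMS with a pseudocount of 0.766, the 10th percentile of RMS above 0, and 2-fold was the limit. Named gene windows needed an RMS of at least 1.68, the median of RMS above 0, in 1 of the libraries compared, with 10 genes per direction, up to 4 per gene list and the 5 gene windows of highest control RMS; predicted and clone-named genes, small RNAs and receptor families for smell were left out of this rule. Srl, Scaf8, Crebbp, Rab10 and the genes summarised over windows were also named, partly after their values were seen. The windows, gene lists and rules were chosen with earlier results of these data known. Promoters came from RefSeq, GRCm38.p6. Alternatives were other pseudocounts, scalings, a trend correction, RPM in place of RMS, filters, limits on position and density, and each autosome left out. Calculations used Python 3.11.15, numpy 2.4.6 and pandas 2.3.3, and the steps were tested on simulated data.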

Additional observations from a re-analysis of the deposited data

How the results depend on the processing

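No paired analysis was possible because each group had 1 library. With each autosome left out in turn, the difference of medians between the centromere-proximal and other autosomal windows ranged from 0.06 to 0.07 at the high dose, and the share lower from 1.58% to 1.95%. The share higher rested on few windows: at the high dose it ranged from 0.0489% (without chromosome 10 or 18) to 0.103%, and at the low dose from 0.0489% (without chromosome 18) to 0.155%. The difference kept its sign under other pseudocounts, scalings, RPM in place of RMS and the trend correction, at 0.04 to 0.08 at the high dose. With a mean RPM ceiling of 5 it turned to -0.014 at the high dose and to -0.0136 between the doses, and was 0.0081 at the low dose. That ceiling removes dense windows from the members alone. With the ceiling of 5 on both sets, an alternative chosen after seeing the data, it was 0.06 at the high dose. Without the first windows of chromosome 9, also chosen afterwards, it was 0.06. The scalings of gene and group medians, the added group members and a ceiling of 15 on the other windows, which gave 0.07, were likewise chosen after seeing the data.

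Shares past the limit moved with the scale. At the high dose the share lower was 6.59% with the pseudocount divided by 3, 0% with it multiplied by 3, 0.325% after quantile normalization, 0.974% after division by medians, 0.186% with the trend subtracted, 0% with RMS above 1 in all 3 libraries and 10.6% at a limit of 1.5-fold. The share higher was 0.464%, 0%, 0.464% and, with the trend subtracted, 0.649%; it was 0% with RMS above 1 in all 3, 1.76% at 1.5-fold and 0% as a median over chromosomes. At the low dose the share lower was 3.803%, 0%, 0.325%, 0.557%, 0.0464%, 0% and 6.91% in the order first given, and the share higher 0.603% and 0% for the pseudocounts, 1.90% at 1.5-fold and 0% as a median over chromosomes. Between the doses the share lower was 1.95% and 0% for the pseudocounts, 0% with RMS above 1 in all 3, 3.15% at 1.5-fold and 0% as a median over chromosomes. The share higher there was 0.510%, 0%, 0%, 1.39% and 0%. A larger pseudocount shrinks changes of low windows by construction. Requiring RMS above 1 in all 3 libraries removes windows that are low in any library, and with them most possible calls. A limit of 1.5-fold admits smaller changes by construction. For the remaining settings the cause was not tested. In the lower direction the share of other autosomal windows was above that of members in each of these settings at the high dose. The remaining shares are given for members alone, so they describe the dependence on scale and not a difference from other windows.

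The median mean RPM of members was 3.605 and their mean factor 3.13 with RMS above 1 in all 3 libraries. The mean factor was 2.43 with the ceiling of 5, on members alone or on both sets. All 10 named windows lower at the high dose kept their direction under 6 scalings or pseudocounts, and 10, 0, 4, 6, 2 and 6 of them passed 2-fold with the pseudocount divided by 3, multiplied by 3, quantile normalization, division by medians, the trend subtracted and RPM. How deep each window was read is unknown, so low windows cannot be given a counting error.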

Other observations

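Some intergenic windows of the centromere-proximal stretch were also past 2-fold. An intergenic window on chromosome 5 (chr5:4164001-4164500) had RMS 0.836 in the control, 2.79 with the low dose and 1.26 with the high dose. A window on chromosome 13 (chr13:3287501-3288000) had 1.63, 0.0774 and 0.407. A run on chromosome 16 (chr16:3359001-3361500) had mean RMS 3.12 in the control, 3.49 with the low dose and 4.66 with the high dose over 5 adjacent windows. Its first window had 1.07, 0.890 and 2.67, and was 2-fold higher at the high dose than at the low dose.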
